A study of Mus musculus with 6 samples.

Results

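The synapse genes described here were the genes of the analysed part of the deposited table annotated to the glutamatergic synapse or GABAergic synapse pathway of KEGG, or to chemical synaptic transmission in Gene Ontology, leaving out genes that were also annotated to 8 other KEGG pathways, among them insulin signaling, Wnt signaling, focal adhesion, and oxidative phosphorylation. This gave 85 of the 4864 genes of that part (called the table below, since the copy used here ends in an incomplete line and genes beyond it are not analysed here), with 41 in the glutamatergic pathway, 26 in the GABAergic pathway, and 48 in the transmission term, and some in more than 1 of these. The other pathways removed 7 further genes. A count was present in at least 1 library for 84 of the 85 genes, and 46 reached the mean level of 0.5 FPKM needed for the test between groups (FPKM, a level of sequenced fragments corrected for gene length and library depth).

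RNA was sequenced from adipocytes differentiated from wild-type (WT) adipose-derived stem cells (ADSCs), the mesenchymal cells that give rise to fat cells, of subcutaneous adipose tissue. The study's methods name male C57BL/6J mice as the source of its ADSCs and harvest on differentiation day 8. All 6 samples had the differentiation medium with dexamethasone, insulin, 3-isobutyl-1-methylxanthine, indomethacin, and triiodothyronine. The vehicle group (3 libraries, titled Control in the labels) had this alone, and the NJT-2 group (3 libraries) also had NJT-2 (saikosaponin A), a natural terpenoid that the study describes as a ligand of PPARγ, given at 200 nM in this cell model. Neither the ages of the mice nor whether the replicates came from separate animals or cultures is stated in the labels, so the p-values measure the spread between these libraries, which may be technical.

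Chemical synapses pass a signal between neurons by a transmitter that is released from vesicles and binds receptors on the next cell. Glutamate is the main excitatory and GABA the main inhibitory transmitter of the brain, and each acts on receptors that are ion channels and on receptors that couple to G proteins and adenylyl cyclases. Transporters of the Slc1 family clear glutamate, scaffold proteins such as Homer and Dlg hold the receptors in place, and voltage-gated calcium channels trigger release. Many members of these annotation groups, such as G proteins, cyclases, and amino acid carriers, also work in cells that form no synapse, fat cells included.

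The libraries held between 16093037 and 28929673 counts over the analysed genes, with the fewest in vehicle replicate 1. The TMM factor, which adjusts a library total in the test between groups, was 0.770 in vehicle replicate 1 and 0.967 to 1.11 in the others. The deposited FPKM values were used without it. Relative to its group, vehicle replicate 1 is thus higher on TMM-scaled counts than on FPKM. Vehicle replicate 1 and NJT-2 replicate 2 stood apart from the others of their groups. Of the 9 adipocyte markers in the table, the summed level was 82.0 to 105 FPKM in vehicle and 1640, 482, and 1330 FPKM in NJT-2 replicates 1, 2, and 3, with NJT-2 replicate 2 the lowest of its group. The vehicle sum was mostly *Lpl* (55.14 to 78.79 FPKM) and *Pnpla2* (14.11 to 18.95 FPKM), while *Adipoq*, which codes for adiponectin, was at 0.38 to 0.50 FPKM and *Slc2a4*, the insulin-responsive glucose transporter, at 0 to 0.13 FPKM there. The deviation of a library from its group mean moved with transcript length, with a Spearman coefficient over tested genes of -0.379, -0.152, and 0.543 in vehicle replicates 1, 2, and 3 and of -0.216, 0.195, and -0.143 in those of NJT-2, which is a description across genes. It was positive in vehicle replicate 3 and NJT-2 replicate 2, the libraries in which many synapse genes were highest. What part this had in the values below was not tested.

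Promoters are shown for 5 synapse genes to set the letters beside the levels described below, as *Grm2*, *Slc12a5*, and *Slc38a2* were highest in the same library of each group while *Vdac1* and *Slc1a6* separated the groups. RefSeq promoters (GRCm38.p6, from 250 bases before the start to 50 after it) were found for 65 of the 85 genes, 43 of them within 100 bases of the deposited 5′ end. Each was searched on both strands for CAGCACC and GGACAGC, conserved letters from the left and right parts of RE1, the element bound by REST, a repressor that keeps neuronal genes silent outside neurons. Capitals mark a match, read on the reverse strand where the letters are reversed. The *Grm2* window (chr9:106656060-106656359, minus strand), for a glutamate receptor, held a match to each. The *Slc12a5* window (chr2:164960596-164960895, plus strand), for the neuronal potassium chloride carrier KCC2, held none. The *Slc38a2* window (chr15:96699679-96699978, minus strand), for an amino acid carrier that takes up glutamine, held CAGCACC on the reverse strand. The *Vdac1* window (chr11:52360601-52360900, plus strand), for the main pore of the outer mitochondrial membrane, and the *Slc1a6* window (chr10:78780246-78780545, plus strand), for the glutamate transporter EAAT4, held none.
Grm2: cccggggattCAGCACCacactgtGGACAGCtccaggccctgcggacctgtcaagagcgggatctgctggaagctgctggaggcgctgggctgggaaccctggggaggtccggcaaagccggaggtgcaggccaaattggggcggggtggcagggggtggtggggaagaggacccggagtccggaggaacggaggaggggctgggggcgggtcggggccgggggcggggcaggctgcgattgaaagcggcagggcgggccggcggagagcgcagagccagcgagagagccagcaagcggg
Slc12a5: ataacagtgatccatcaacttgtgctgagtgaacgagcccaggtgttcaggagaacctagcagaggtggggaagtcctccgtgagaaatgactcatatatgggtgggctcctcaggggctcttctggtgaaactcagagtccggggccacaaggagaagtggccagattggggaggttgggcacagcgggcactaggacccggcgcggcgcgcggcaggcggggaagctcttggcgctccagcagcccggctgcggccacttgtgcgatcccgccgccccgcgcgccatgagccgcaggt
Slc38a2: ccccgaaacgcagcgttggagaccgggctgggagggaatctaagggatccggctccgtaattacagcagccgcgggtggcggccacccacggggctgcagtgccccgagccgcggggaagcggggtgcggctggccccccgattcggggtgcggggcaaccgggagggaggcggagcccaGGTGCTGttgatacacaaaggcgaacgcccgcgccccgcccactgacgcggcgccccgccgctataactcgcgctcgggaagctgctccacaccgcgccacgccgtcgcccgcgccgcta
Vdac1: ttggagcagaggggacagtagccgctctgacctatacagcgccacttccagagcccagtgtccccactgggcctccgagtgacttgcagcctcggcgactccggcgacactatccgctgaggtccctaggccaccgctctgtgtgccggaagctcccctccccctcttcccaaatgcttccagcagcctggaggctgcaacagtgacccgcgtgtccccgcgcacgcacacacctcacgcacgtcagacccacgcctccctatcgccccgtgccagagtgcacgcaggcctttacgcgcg
Slc1a6: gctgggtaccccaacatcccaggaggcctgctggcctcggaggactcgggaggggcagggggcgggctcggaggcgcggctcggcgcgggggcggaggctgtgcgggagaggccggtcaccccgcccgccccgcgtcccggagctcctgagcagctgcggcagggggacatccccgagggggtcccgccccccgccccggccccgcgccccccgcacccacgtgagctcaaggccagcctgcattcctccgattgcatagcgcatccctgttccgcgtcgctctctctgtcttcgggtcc

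CAGCACC was found in 6 of the 65 windows (9.23%), against 7.09% of all 27025 RefSeq windows. GGACAGC was found in 9 (13.8%), against 6.59%. Either was found in 14 (21.5%), against 13.1%. A match of 7 letters is a description of the window and not a site.

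Most receptors for glutamate and GABA were absent from vehicle replicate 1, low in 3 libraries, and highest in vehicle replicate 3 and NJT-2 replicate 2. *Gria1*, a subunit of the AMPA receptor that carries fast excitatory transmission, was at 0, 0.31, and 1.58 FPKM in vehicle (replicates 1, 2, and 3 in turn) and at 0.58, 1.95, and 0.59 FPKM in the NJT-2 libraries in the same order. The groups overlapped, since the spread within each group was wider than the difference between the group means, and vehicle replicate 3 lay above 2 of the NJT-2 libraries. These were 682 counts in vehicle replicate 3 and 826 in NJT-2 replicate 2, so the high values did not rest on a few reads. Scaled to the library totals with TMM factors, vehicle replicate 3 was at least 28.9-fold higher than vehicle replicate 1, taking a floor of 12 counts in vehicle replicate 1. The floor is 3 times the step of 4, since 4 was the most frequent count up to 12 in the table, and 1 sequenced fragment may thus add several counts.

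Apart from *Grin2d*, the receptors below 0.5 FPKM were read as counts, in the order vehicle replicates 1, 2, and 3 and then NJT-2 replicates 1, 2, and 3. Among the subunits of the GABA-A receptor, a chloride channel, *Gabrb2* had 0, 21, 86, 25, 101, and 38 counts. It was highest in the same 2 libraries as *Gria1*. *Gabra2* had 0, 10, 64, 41, 80, and 7 counts, and *Gabrg1*, whose gene lies beside it, had 0, 4, 43, 24, 56, and 0. *Gabrr2*, a subunit best known from the retina, had 0, 16, 6, 8, 14, and 11 counts and was not highest in both of these libraries, at values near the floor. These GABA-A subunits all had no count in vehicle replicate 1.

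Of the metabotropic glutamate receptors, which couple to G proteins, none reached the level for a test. *Grm2* had 0, 45, 120, 28, 128, and 28 counts in the same order, and *Grm3*, its closest relative, had 0, 32, 74, 18, 102, and 17. *Grm8* had 0, 15, 56, 8, 40, and 0 counts. These were each highest in vehicle replicate 3 and NJT-2 replicate 2 of their groups, and each was without a count in vehicle replicate 1. *Grm6*, the receptor of retinal bipolar cells, had 4 counts in vehicle replicate 2 and none elsewhere. An opposite-strand gene shares 9.6% of the exon bases of *Grm2*, and whether the counting used strand is not stated in the sources used here.

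Ionotropic glutamate receptors split into those with this order and those without it. *Grik3*, a kainate receptor subunit, had 0, 27, 119, 18, 145, and 25 counts. *Grin2c*, a subunit of the NMDA receptor, had 12, 41, 155, 24, 168, and 26 counts, and *Grik1* had 0, 14, 16, 12, 25, and 10, close to the floor throughout. *Grin2d*, another NMDA receptor subunit, was at 0.38, 0.65, and 0.79 FPKM in vehicle and at 0.19, 0.69, and 0.29 FPKM in NJT-2, in the same order but with vehicle replicates 2 and 3 close together. Its raw counts were 149, 391, 375, 91, 324, and 138, so before scaling vehicle replicate 2 was the highest of its group. *Gria3* (ENSMUSG00000001986, chrX:41400854-41676592 on GRCm38), an AMPA receptor subunit, was the glutamate receptor gene of the highest level and went the other way within NJT-2. It was at 4.85, 10.73, and 13.98 FPKM in vehicle and at 9.24, 4.76, and 9.66 FPKM in NJT-2, with NJT-2 replicate 2 the lowest of its group. *Grik5*, a kainate receptor subunit, was also without this order, with 2.34, 1.43, and 2.25 FPKM in vehicle and 1.42, 1.82, and 1.32 FPKM in NJT-2. *Gabbr1*, a subunit of the G protein coupled GABA-B receptor, was at 1.94, 2.43, and 4.40 FPKM in vehicle and at 2.62, 3.62, and 1.98 FPKM in NJT-2, again highest in vehicle replicate 3 and NJT-2 replicate 2.

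To set genes of different level side by side, CPM were used, which are counts scaled to the library total with TMM factors. The CPM of each receptor were summed over the 6 libraries and each library's share of the sum was taken. For the 18 receptor genes with more than 12 counts, the median share was 0%, 9.55%, and 30.19% in vehicle (replicates 1, 2, and 3 in turn) and 10.16%, 40.39%, and 7.66% in the NJT-2 libraries in the same order. Over all 3705 tested genes the median shares were between 15.12% and 15.73%. Most of these receptors were of low level, and the 13 below the level for the test had medians of 0%, 8.98%, 30.52%, 8.13%, 40.48%, and 6.92%. The 922 genes of the table that were likewise below it and had more than 12 counts had medians of 0%, 8.67%, 15.68%, 11.87%, 26.38%, and 11.58%, so that the missing share in vehicle replicate 1 was common to genes of low level. Among tested receptors, *Gria3*, *Grik5*, and *Gabbr1* had 13.6%, 30.5%, and 16.6% in vehicle replicate 1. NJT-2 replicate 2 exceeded vehicle replicate 3 by a median CPM ratio of 1.33 over the 17 receptor genes with more than 12 counts in vehicle replicate 3, with a range from 0.378 to 1.77. Over tested genes detected in vehicle replicate 3 the median ratio was 0.987.

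**Figure D1:**
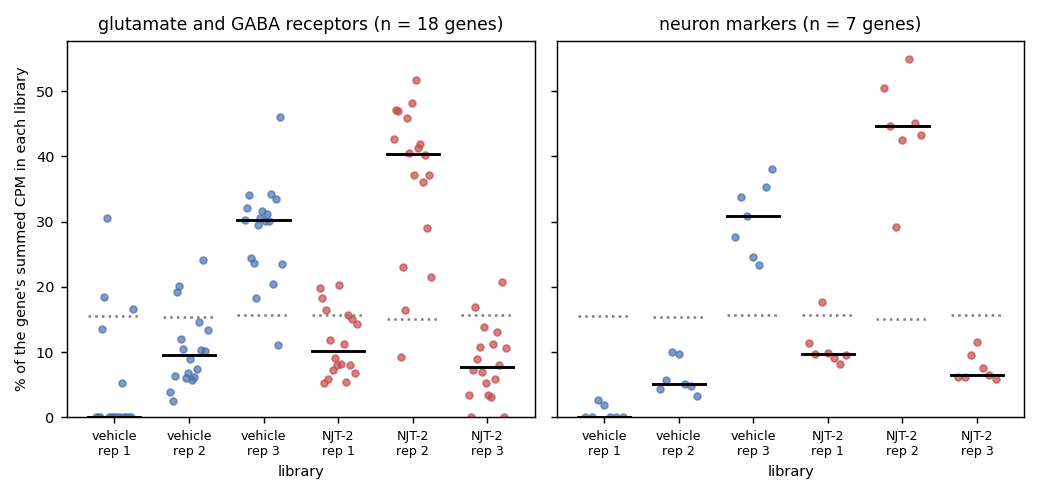
Share of each gene's CPM (in %, summed over the 6 libraries) that fell in each library, for 18 glutamate and GABA receptor genes and 7 neuron markers. Each point is 1 gene, the black line is the median of the points and the dotted line the median over all 3705 tested genes, and in both panels the medians are highest in vehicle replicate 3 (30.19% and 30.84%) and NJT-2 replicate 2 (40.39% and 44.63%) and 0 in vehicle replicate 1.

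Markers of neurons moved with the receptors. Of a list of 16 neuron markers, 7 were in the table, and 7 of these 7 were highest in vehicle replicate 3 and in NJT-2 replicate 2. Their summed level was 0.11, 3.99, and 24.07 FPKM in vehicle (replicates 1, 2, and 3 in turn) and 6.8, 32.8, and 5.45 FPKM in the NJT-2 libraries in the same order. *Camk2a*, the kinase abundant in excitatory neurons, made up most of this sum, at 14.49 FPKM in vehicle replicate 3 and 16.69 FPKM in NJT-2 replicate 2 against 0.02 FPKM in vehicle replicate 1. *Rbfox3*, which codes for the neuronal nuclear antigen NeuN, was at 0.90 and 0.93 FPKM in these libraries and listed at 0 in vehicle replicate 1. Of 10 markers of Schwann cells and glia, 5 were in the table, 4 of them highest in the same 2 libraries, with a summed level of 3.72, 6.29, and 9.30 FPKM in vehicle and 6.48, 7.55, and 5.62 FPKM in NJT-2. The exception was *Ngfr*, a neurotrophin receptor, which was lowest in NJT-2 replicate 2 of its group (0.30 FPKM, against 1.85 and 1.62 FPKM). The astrocyte gene *Gfap* was at 0.01, 0.24, and 1.70 FPKM in vehicle and 0.72, 2.11, and 0.68 FPKM in NJT-2, and *Aqp4*, the astrocyte water channel, at 0, 0.17, and 0.62 FPKM and 0.20, 0.76, and 0.14 FPKM. Markers of other cell types were summed in the same way. The 2 smooth muscle and pericyte markers in the table, of 5, summed to 11.29, 13.79, and 12.55 FPKM in vehicle and 2.72, 4.04, and 3.88 FPKM in NJT-2. The 4 macrophage markers of 8 summed to 9.67, 12.74, and 10.28 FPKM and to 58.74, 31.37, and 44.85 FPKM. Preadipocyte and fibroblast markers (5 of 11) summed to 227, 781, and 999 FPKM and to 488, 444, and 452 FPKM. The 3 endothelial markers of 7 summed to 0.45, 1.48, and 2.18 FPKM in vehicle and to 1.34, 2.46, and 1.5 FPKM in NJT-2. This sum was highest in vehicle replicate 3 and NJT-2 replicate 2, as were the neuron markers, though only *Tek* of the 3 had that order. The part of any of these markers in the levels of the synapse genes, those that separated the groups included, was not tested. In bulk RNA, more cells of a type and more RNA per cell cannot be told apart.

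The same order of libraries was counted over all synapse genes. Of the 46 tested genes, 17 were highest in both vehicle replicate 3 and NJT-2 replicate 2, against 22.3% of all tested genes. Of the 38 genes with a count but below the level for the test, 27 were, against 29.7% of such genes in the table. No count in vehicle replicate 1 together with more than 12 counts in vehicle replicate 3 was seen for 23 of 84 synapse genes, against 5.95% of all genes with a count. Vehicle replicate 1 was without a count for 33 of the 85 genes and the other libraries for 5 to 8. The order was thus most frequent among the genes of low level, which hold most of the receptors.

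**Figure D2:**
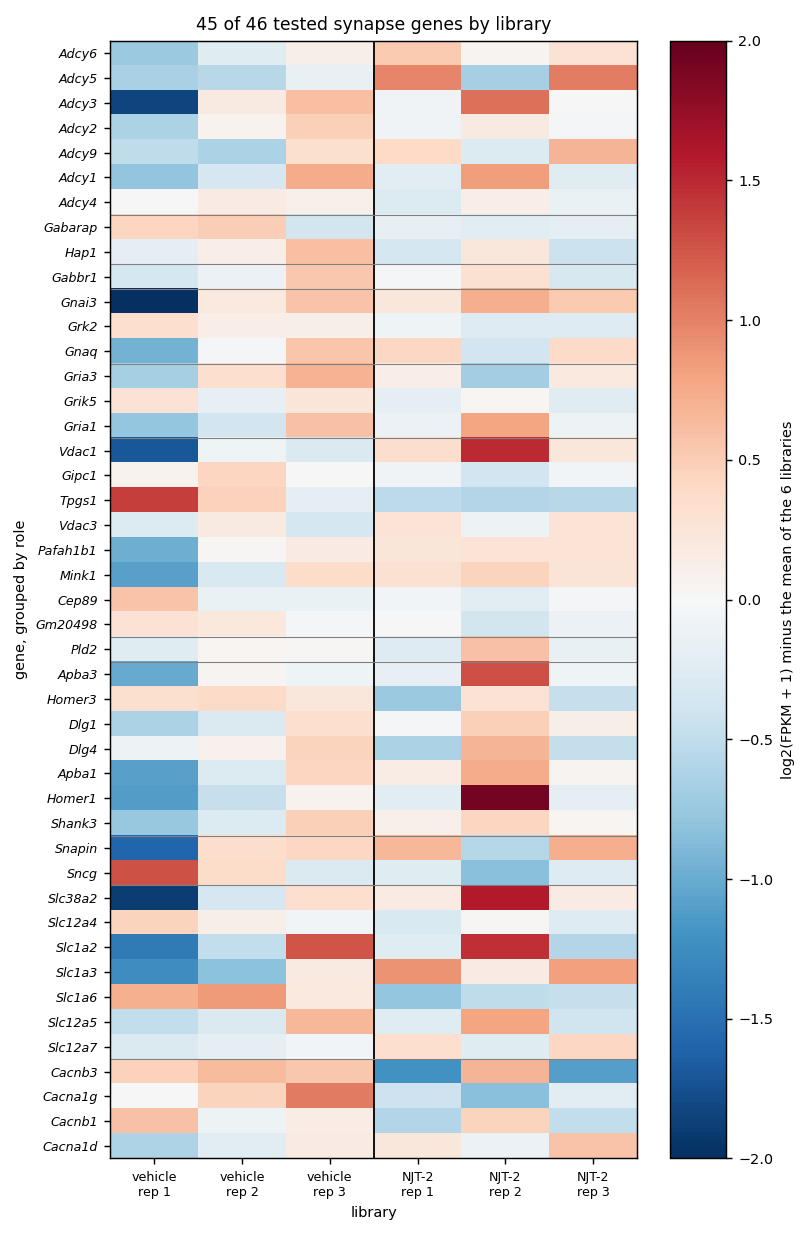
Level of 45 of the 46 tested synapse genes in each library, as log2(FPKM + 1) minus the gene's mean over the 6 libraries, with genes grouped by role (grey lines) and the vehicle and NJT-2 libraries split by the black line. Vehicle replicate 1 was the lowest of its group for 32 of the 46 genes, and NJT-2 replicate 2 was the highest of its group for 26 and the lowest for 17, against 66.2%, 36.3%, and 58.1% of all tested genes.

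Among the transporters, *Slc1a2* was wide within both groups and *Slc1a6* did not overlap between them. *Slc1a2* (ENSMUSG00000005089, chr2:102658659-102790784 on GRCm38) codes for GLT-1, the astrocyte transporter that clears most glutamate from the brain's synapses. Its level was 0, 0.89, and 5.38 FPKM in vehicle (replicates 1, 2, and 3 in turn) and 1.25, 6.33, and 0.76 FPKM in the NJT-2 libraries in the same order. These were 0 counts in vehicle replicate 1 and 5043 in vehicle replicate 3, at least 214-fold higher relative to the library totals with TMM factors. The gene thus had the order of most receptors. Its log2 fold change of 0.52 (SE, the standard error of the fit, 1.69) for NJT-2 against vehicle had an adjusted p of 0.867 in edgeR, was 2.71 without vehicle replicate 3, and turned to -0.07 without vehicle replicate 1 and to -1.04 without NJT-2 replicate 2.

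*Slc12a5*, the neuronal chloride extruder, was at 0.39, 0.60, and 2.09 FPKM in vehicle and at 0.65, 2.38, and 0.48 FPKM in NJT-2. *Slc1a1*, a neuronal glutamate transporter, had 0, 94, 224, 95, 368, and 61 counts, and 31.9% of its exon bases are shared with an opposite-strand gene. *Slc38a3*, a glutamine carrier known from astrocytes and liver, had 0, 61, 173, 37, 355, and 50 counts. All of these were highest in vehicle replicate 3 and NJT-2 replicate 2 of their groups. *Slc17a8*, a vesicular glutamate transporter, and *Slc1a7*, a glutamate transporter of the retina, were high in NJT-2 replicate 2 alone, with 64 and 100 counts there and at most 16 and 11 in any other library.

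*Slc38a2* (ENSMUSG00000022462, chr15:96687392-96699730 on GRCm38) codes for SNAT2, a widely expressed carrier of neutral amino acids that cells raise under amino acid shortage. It was at 6.39, 20.84, and 34.04 FPKM in vehicle and at 30.10, 81.77, and 29.91 FPKM in NJT-2. The lowest library was again vehicle replicate 1 and the highest NJT-2 replicate 2, here at a level far above that of the receptors and with 3285 counts in the lowest library. edgeR fitted a log2 fold change of 1.20 (SE 0.61, adjusted p = 0.314), which was 0.47 without NJT-2 replicate 2. *Slc12a4*, the potassium chloride carrier of most tissues, was even on FPKM by comparison. It was at 41.14, 32.52, and 28.76 FPKM in vehicle and 23.98, 30.35, and 24.86 FPKM in NJT-2. Vehicle replicate 1 stood further above the others on TMM-scaled counts.

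*Slc1a3* and *Slc1a6*, both glutamate transporters, did not have the order of the receptors. *Slc1a3*, which codes for GLAST and is expressed in glia and in several peripheral tissues, was at 0.26, 0.69, and 2.37 FPKM in vehicle and at 4.59, 2.33, and 4.30 FPKM in NJT-2. The groups overlapped on FPKM by a narrow margin, between vehicle replicate 3 and NJT-2 replicate 2, and did not on CPM, where NJT-2 replicate 2 was 1.09 times vehicle replicate 3, while edgeR gave a difference of 1.72 on the log2 scale (SE 0.66), with an unadjusted p of 0.0319 and an adjusted p of 0.252. That difference was 2.73 without vehicle replicate 3 and 1.27 without vehicle replicate 1, with adjusted p-values of 0.0851 and 0.383 in edgeR. *Slc1a6* (ENSMUSG00000005357, chr10:78780496-78814765 on GRCm38), known from cerebellar Purkinje cells, was at 3.29, 3.74, and 2.02 FPKM in vehicle and at 0.53, 0.84, and 0.91 FPKM in NJT-2, so that every vehicle library lay above every NJT-2 library. The mean was 3.02 ± 0.892 FPKM (SD, n = 3) in vehicle and 0.760 ± 0.202 FPKM (SD, n = 3) in NJT-2. Its log2 fold change of -2.22 (SE 0.58) was the lowest of the 46 tested genes and had an adjusted p of 0.143 in edgeR, which did not pass the limit, while DESeq2 gave -2.20 with an adjusted p of 0.00651. With each library left out in turn the fold change stayed between -2.52 and -1.92. Limma on log2(FPKM + 1) gave a smaller difference of -1.17 (adjusted p = 0.112). The summed smooth muscle and pericyte markers were also lower in every NJT-2 library, as was *Cnn1*, while *Myh11* overlapped between the groups, and their part in this difference was not tested.

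Scaffold proteins of the postsynaptic side were mostly detected in all libraries, and 7 of 10 were highest in vehicle replicate 3 and NJT-2 replicate 2 on FPKM. The share was 22.3% of all tested genes and 29.7% of genes with a count below the level for the test. Of the 7, *Dlg4* did not have this order on CPM. *Homer1* (ENSMUSG00000007617, chr13:93299635-93405129 on GRCm38), which links metabotropic glutamate receptors to calcium stores, had the widest range of the tested synapse genes within NJT-2, 2.15 log2 units on the log2(FPKM + 1) scale. It was at 0.10, 0.75, and 1.53 FPKM in vehicle and at 1.04, 8.05, and 1.12 FPKM in NJT-2. NJT-2 replicate 2 was 7.45 times the mean of the other two NJT-2 libraries, while those libraries lay within the range of vehicle. The log2 fold change of 2.17 (SE 1.06), the highest of the 46 genes, was 0.41 without NJT-2 replicate 2, with an adjusted p of 0.305 in edgeR on all libraries.

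*Apba3*, a broadly expressed adaptor protein of the Mint family, had a like order within NJT-2, at 5.81, 13.23, and 11.91 FPKM in vehicle and 11.24, 32.51, and 11.87 FPKM in NJT-2. *Apba1*, its neuronal relative, was at 0.47, 1.59, and 3.20 FPKM and at 2.46, 4.22, and 2.25 FPKM. *Dlg4*, which codes for PSD-95, the main scaffold of excitatory synapses, was at 4.22, 4.93, and 6.61 FPKM in vehicle and at 2.59, 7.95, and 2.99 FPKM in NJT-2. In all of these NJT-2 replicate 2 was above the other two libraries of its group. *Dlg1*, the more widely expressed relative of *Dlg4*, was at 4.69, 6.22, and 10.21 FPKM and at 7.71, 11.35, and 8.62 FPKM. *Shank3*, a master scaffold below the receptors, had 12, 358, 927, 568, 864, and 506 counts. *Dlgap1*, which binds PSD-95, had 51, 146, 597, 165, 723, and 154 counts. For both, vehicle replicate 1 was the lowest library.

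*Homer3*, another Homer protein, was at 15.00, 15.61, and 13.90 FPKM in vehicle. This range of 0.16 on the log2(FPKM + 1) scale was the narrowest of the tested synapse genes in that group. The evenness held on FPKM only, as vehicle replicate 1 was the highest of its group on TMM-scaled counts (3002, 4788, and 3416 before scaling). In NJT-2 *Homer3* was at 6.61, 14.60, and 8.24 FPKM, with only NJT-2 replicate 2 near the vehicle libraries. An opposite-strand gene, *Ddx49*, shares 25.4% of its exon bases.

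Among voltage-gated calcium channel genes, the vehicle group was again even on FPKM and the NJT-2 group uneven in *Cacnb3* (ENSMUSG00000003352, chr15:98630840-98644529 on GRCm38), a channel-regulating beta subunit. It was at 15.56, 17.80, and 16.57 FPKM in vehicle and at 4.21, 18.32, and 4.65 FPKM in NJT-2. NJT-2 replicate 2 lay above every vehicle library on FPKM, and the other NJT-2 libraries lay far below them. On TMM-scaled counts vehicle replicate 1 was the highest of its group and lay above NJT-2 replicate 2 (3626 and 5152 counts before scaling). In edgeR the fitted log2 fold change of *Cacnb3* was -1.03 (SE 0.63, adjusted p = 0.379), and it was -2.15 (adjusted p = 0.0414) without NJT-2 replicate 2. *Cacnb1*, another beta subunit, was at 2.43, 1.12, and 1.53 FPKM in vehicle and at 0.53, 2.11, and 0.63 FPKM in NJT-2, where again replicate 2 alone reached the vehicle level.

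*Cacna1g* (ENSMUSG00000020866, chr11:94408391-94474198 on GRCm38), the pore of a low-voltage activated T-type channel, separated the groups. It was at 6.96, 9.89, and 15.43 FPKM in vehicle and at 5.02, 3.52, and 5.94 FPKM in NJT-2, with the lowest vehicle library just above the highest NJT-2 library. The mean was 10.8 ± 4.30 FPKM (SD, n = 3) in vehicle and 4.83 ± 1.22 FPKM (SD, n = 3) in NJT-2. Its log2 fold change of -1.29 (SE 0.33) had the lowest adjusted p of the synapse genes, 0.134 in edgeR, and DESeq2 gave -1.28 with an adjusted p of 0.00862. It moved in the direction of the summed smooth muscle and pericyte markers and of *Pdgfrb*, a marker of fibroblasts and pericytes. *Pdgfrb* was at 56.74, 70.15, and 88.46 FPKM in vehicle and 35.56, 19.47, and 40.98 FPKM in NJT-2. Of the other preadipocyte and fibroblast markers, *Pi16* was also lower in every NJT-2 library, while *Col1a1*, *Cd34*, and *Dcn* overlapped between the groups. *Cacna1d*, an L-type channel pore, was at 0.07, 0.41, and 0.83 FPKM and at 0.91, 0.52, and 1.43 FPKM. *Cacnb4*, a beta subunit of brain channels, had 44, 278, 579, 213, 450, and 101 counts, and *Cacna1b*, the pore of the N-type channel that triggers transmitter release, had 96, 183, 364, 260, 397, and 276.

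**Figure D3:**
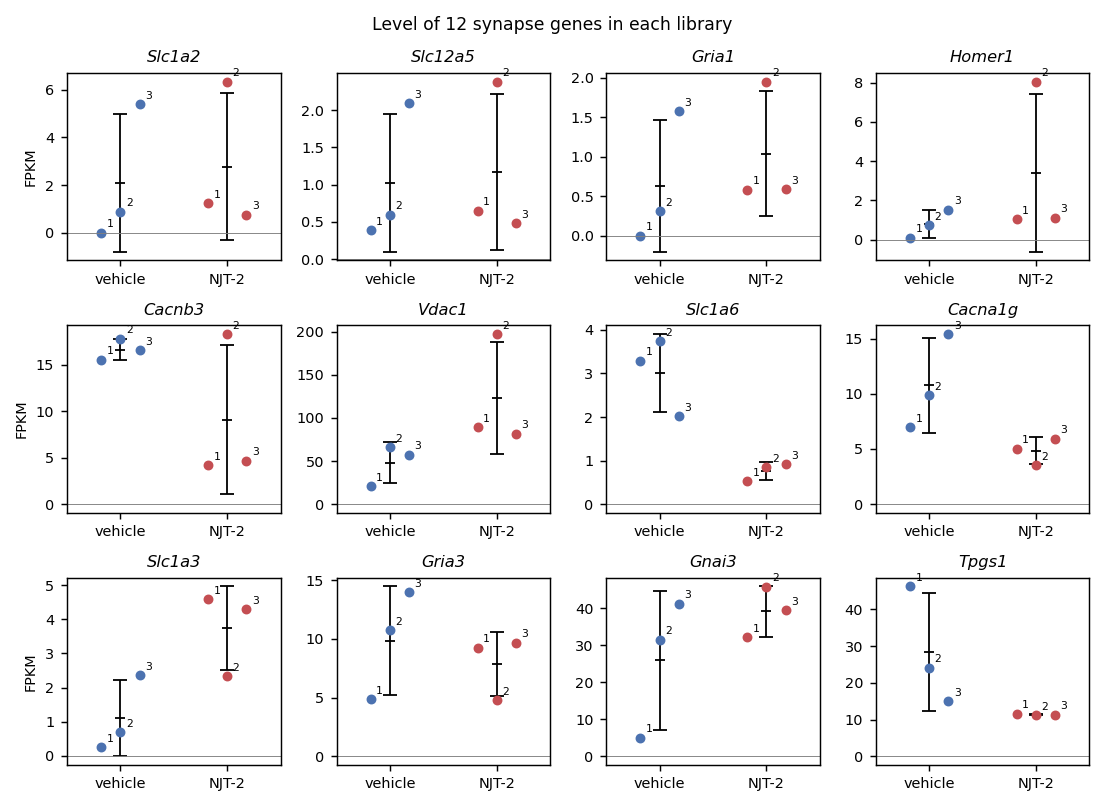
Level in FPKM of 12 synapse genes in each library (points, with the replicate number), with the group mean and SD as a bar. *Slc1a2*, *Slc12a5*, and *Gria1* are high in vehicle replicate 3 and NJT-2 replicate 2, *Homer1* and *Cacnb3* set NJT-2 replicate 2 apart from its group, and *Slc1a6* and *Cacna1g* are lower in all 3 NJT-2 libraries than in any vehicle library.

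G proteins and adenylyl cyclases pass the signal of the metabotropic receptors on, and in adipocytes the same proteins act below adrenergic receptors. *Gnai3* (ENSMUSG00000000001, chr3:108107280-108146146 on GRCm38), an inhibitory G protein alpha subunit, had the widest range of the tested synapse genes within vehicle, 2.82 log2 units. It was at 4.97, 31.49, and 41.19 FPKM in vehicle and at 32.08, 45.72, and 39.46 FPKM in NJT-2. Vehicle replicate 1 was far below the other 5 libraries, which lay between 31.49 and 45.72 FPKM. *Gnaq*, the alpha subunit that activates phospholipase C, was at 3.04, 6.59, and 10.47 FPKM and at 9.36, 4.97, and 9.09 FPKM, low in both libraries that stood apart. *Grk2*, a kinase that desensitizes receptors, was at 17.23, 14.93, and 14.76 FPKM in vehicle and at 12.63, 11.11, and 11.09 FPKM in NJT-2. Its groups did not overlap, and the log2 fold change of -0.67 (SE 0.35) had an adjusted p of 0.322 in edgeR and was -0.36 without vehicle replicate 1. *Gng4*, a gamma subunit known from brain, had 0, 16, 53, 18, 183, and 26 counts.

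Among the cyclases, *Adcy6* was the highest, at 7.53, 11.15, and 14.52 FPKM in vehicle and at 19.55, 13.93, and 16.59 FPKM in NJT-2. *Adcy5* was at 2.48, 2.73, and 3.94 FPKM in vehicle and at 9.79, 2.44, and 10.07 FPKM in NJT-2. NJT-2 replicate 2 was thus at the vehicle level, and the other two NJT-2 libraries were above every vehicle library, the reverse of the order in *Cacnb3*. For *Adcy5*, edgeR fitted 1.09 on the log2 scale (SE 0.52, adjusted p = 0.299). *Adcy3* was at 0.42, 4.76, and 6.70 FPKM in vehicle and at 3.81, 9.85, and 4.11 FPKM in NJT-2, and an opposite-strand gene, *Cenpo*, shares 22.1% of its exon bases. Its log2 fold change of 0.63 (SE 0.79) changed sign without NJT-2 replicate 2, to -0.03. *Adcy1*, a cyclase of neurons, was at 0.09, 0.48, and 2.13 FPKM and at 0.63, 2.36, and 0.58 FPKM, which is the order of the receptors. *Pld2*, a phospholipase D annotated to the glutamatergic pathway, was at 1.34, 1.87, and 1.82 FPKM and at 1.33, 3.16, and 1.52 FPKM.

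Vesicle proteins were represented by 2 genes. *Snapin*, which binds the SNARE complex and lysosomes, was at 4.13, 18.57, and 19.34 FPKM in vehicle and at 23.33, 9.31, and 24.31 FPKM in NJT-2, so that vehicle replicate 1 and NJT-2 replicate 2 were both the lowest of their groups, as for *Gnaq*. Its log2 fold change of 0.38 (SE 0.52) turned to -0.03 without vehicle replicate 1. *Sncg*, a synuclein that is also abundant in white adipocytes, was at 4.85, 2.1, and 0.98 FPKM and at 1.04, 0.35, and 1.01 FPKM, and was highest in vehicle replicate 1. On the log2 scale the difference was -2.12 (SE 0.92, adjusted p = 0.284 in edgeR).

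Of the proteins that move GABA-A receptors to the membrane, *Gabarap* belongs to the family of autophagy proteins that coat the autophagosome. It was by mean the highest of the synapse genes, at 143.64, 149.09, and 81.94 FPKM in vehicle and 94.92, 90.69, and 93.99 FPKM in NJT-2. *Hap1*, a partner of huntingtin, was low, at 0.80, 1.22, and 2.1 FPKM in vehicle and 0.59, 1.38, and 0.51 FPKM in NJT-2. The NJT-2 libraries were close together for the first and not for the second.

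Receptors for other transmitters were all below the level for a test. *Chrna2* (ENSMUSG00000022041, chr14:66135039-66152948 on GRCm38), an acetylcholine receptor subunit, had 0, 0, and 11 counts in vehicle and 189, 53, and 139 counts in NJT-2. Every NJT-2 library was above the floor of 12 counts and every vehicle library below it, and within NJT-2 replicate 2 was the lowest. *Drd4*, a dopamine receptor, had 69, 72, and 32 counts in vehicle and 4, 0, and 27 counts in NJT-2. Its groups did not overlap, by a margin near the step of 4 counts (0.13 against 0.11 FPKM). With no filter on level, the groups did not overlap for 9 of 84 synapse genes, against 22.9% of all genes with a count. *Htr7* and *Htr1a*, both serotonin receptors, had 57 and 66 counts in NJT-2 replicate 2 and no count in vehicle replicate 1. *Glra1*, a glycine receptor subunit, had 38 counts in NJT-2 replicate 2 and none elsewhere. *Htr3b*, *Glra4*, and the transmitter peptide gene *Cartpt* had at most 4 counts in any library, *Glra2* had at most 14, and *Chrne* had none.

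Several genes of the transmission term code for proteins with general roles. *Vdac1* (ENSMUSG00000020402, chr11:52360860-52389397 on GRCm38) was at 20.90, 66.10, and 57.22 FPKM in vehicle and at 89.31, 197.56, and 81.76 FPKM in NJT-2, above every vehicle library in each. The mean was 48.1 ± 23.95 FPKM (SD, n = 3) in vehicle and 122.9 ± 64.79 FPKM (SD, n = 3) in NJT-2. By edgeR, *Vdac1* differed by 1.31 on the log2 scale (SE 0.49), with an unadjusted p of 0.0308 and an adjusted p of 0.247, and by 0.71 without NJT-2 replicate 2. *Vdac1* has processed copies in the genome, and reads could be split among them. *Vdac3*, a related pore, was at 15.95, 22.21, and 15.11 FPKM and at 23.82, 18.15, and 23.76 FPKM, with overlap.

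*Tpgs1* (ENSMUSG00000020308, chr10:79669369-79676127 on GRCm38), a subunit of the enzyme that adds glutamate chains to tubulin, was at 46.30, 24.06, and 15.00 FPKM in vehicle and at 11.62, 11.11, and 11.32 FPKM in NJT-2. Vehicle replicate 1 was the highest and the NJT-2 libraries were nearly equal. For *Tpgs1*, edgeR fitted -1.68 on the log2 scale (SE 0.59, adjusted p = 0.222), and -0.78 without vehicle replicate 1. *Gipc1*, an adaptor for membrane protein traffic, was at 23.61, 30.79, and 22.68 FPKM in vehicle and at 21.25, 17.05, and 21.54 FPKM in NJT-2, and edgeR fitted -0.57 on the log2 scale (SE 0.32). *Pafah1b1*, which codes for the dynein regulator LIS1, was at 6.68, 14.42, and 16.06 FPKM in vehicle and at 16.94, 17.37, and 17.46 FPKM in NJT-2, and the fit gave 0.38 on the log2 scale (SE 0.30), or 0.18 without vehicle replicate 1. Neither difference passed the limit, with adjusted p-values of 0.344 and 0.477 in edgeR. *Fgf12*, a regulator of sodium channels, had 0, 66, 300, 70, 321, and 50 counts, in the order of the receptors.

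Over the tested genes, the spread within groups was compared with that of the whole table. The range of log2(FPKM + 1) among the 3 vehicle libraries had a median of 1.01 over the 46 synapse genes and 0.87 over all 3705 tested genes. Among the 3 NJT-2 libraries the medians were 0.67 and 0.60. A range over 1 log2 unit was seen in vehicle for 23 of the 46 genes, against 42.8% of all tested genes, and in NJT-2 for 15 of the 46, against 25.1%. On this scale the tested genes lay close to the table as a whole. The NJT-2 median depended on the scale and on NJT-2 replicate 2, as it was 1.07 with log2(FPKM + 0.1), 1.14 on log2 CPM, and 0.081 without that library. The vehicle median was 0.42 without vehicle replicate 1 and 0.45 without vehicle replicate 3.

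**Figure D4:**
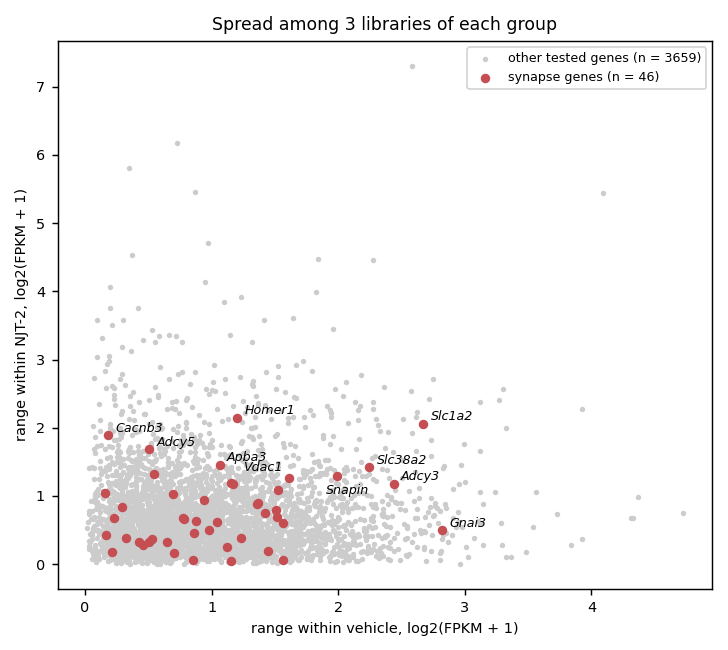
Range of log2(FPKM + 1) among the 3 libraries of vehicle (horizontal axis) and of NJT-2 (vertical axis) for 46 synapse genes (red) and the other tested genes (grey), each point 1 gene. *Gnai3* is widest in vehicle (2.82) and *Homer1* in NJT-2 (2.15), *Slc1a2* is wide in both, and the synapse genes lie within the cloud of the other genes.

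Last, NJT-2 was compared with vehicle over the whole table with the quasi-likelihood test of edgeR, calling a gene at an adjusted p under 0.05 (Benjamini-Hochberg over the 3705 tested genes) and a log2 fold change beyond 1 in either direction. Of the 46 synapse genes, 0 were called higher and 0 lower, against 0.567% and 0.135% of all tested genes. DESeq2, the test named in the study's methods, called 0 higher and 2 lower, *Slc1a6* and *Cacna1g*, and limma called 0. In edgeR, 5 of the 46 had an unadjusted p under 0.05, against 17.8% of all tested genes. Of these, *Vdac1* and *Slc1a3* were higher and *Slc1a6*, *Cacna1g*, and *Tpgs1* were lower with NJT-2. The groups did not overlap for 7 of the 46, against 25.9% of all tested genes, with *Vdac1* and *Pafah1b1* higher and *Slc1a6*, *Tpgs1*, *Cacna1g*, *Grk2*, and *Gipc1* lower. Both shares were below those of the table. The log2 fold change was positive for 26 genes and negative for 20, with a median of 0.16 against 0.02 over all tested genes.

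Single libraries weighed on this comparison over the whole table. Without vehicle replicate 3 the groups did not overlap for 25 of the 46 genes, against 50% of all tested genes, and without NJT-2 replicate 2 for 23, against 47.3%. Leaving out any other single library gave 7 to 9 genes, against 28.2% to 35.3% of all tested genes. Smaller groups overlap less often whichever library is left out. Without NJT-2 replicate 2 the median log2 fold change was -0.35, and without vehicle replicate 3 it was 0.46.

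**Figure D5:**
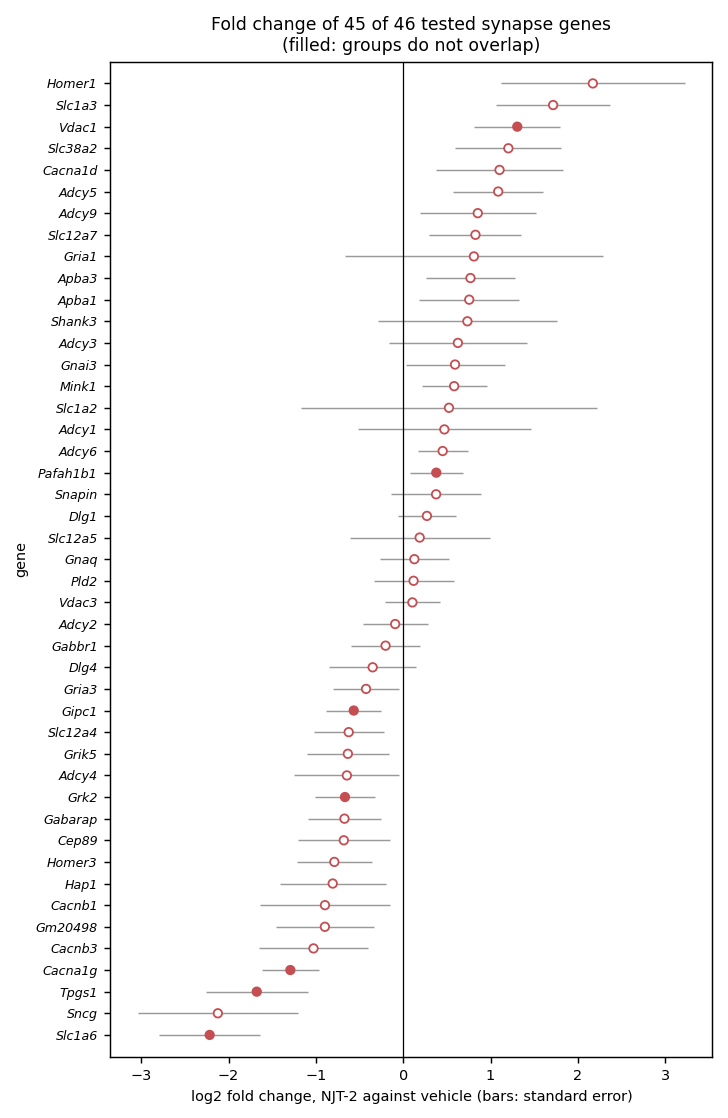
Log2 fold change of NJT-2 against vehicle for 45 of the 46 tested synapse genes, from edgeR, with the SE as bars and filled points for the 7 genes whose groups did not overlap. Values run from -2.22 (*Slc1a6*) to 2.17 (*Homer1*), and none passed the adjusted p limit of 0.05.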

How the data were processed

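RNA of 6 samples of ADSC-derived adipocytes, 3 with vehicle and 3 with NJT-2, was sequenced after poly(A) selection. The authors aligned reads to GRCm38 with HISAT2, and their processing notes list cutadapt 1.9, HISAT2 2.2.1, StringTie 2.1.6, DESeq2, and edgeR without roles. Per the methods of the study, DESeq2 was its test between groups. The authors deposited raw counts per gene and FPKM values, which the authors scaled to gene length and library depth, in a single table. The counting tool, the annotation, and the use of strand are not given in the sources used here. The copy used here has 4865 lines and ends in 1 incomplete line, which was left out, so shares, totals, and marker lists refer to its 4864 complete genes. Among low counts, 41.8% were divisible by 4.

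Counts were tested in R 4.3.3 with edgeR 4.0.16 (TMM, quasi-likelihood, two-sided), over genes whose FPKM averaged 0.5 or more, with Benjamini-Hochberg adjustment. Ranges used log2(FPKM + 1). The method was tested on simulated data. Named genes were those without overlap between groups, the widest 6 ranges in each group, the highest 2 of each role class, and all glutamate and GABA receptors, and further genes were named after their values were seen. Some genes that this rule names are not reported here. The roles of 11 genes were assigned after the table was read. The members and lists were chosen with earlier results of these data known. Alternatives were DESeq2 1.42.0, limma 3.58.1, upper-quartile factors, other filters, scales, and pseudocounts, membership without the 8 exclusions, a replicate block, and leaving out libraries. Promoters came from RefSeq and exon overlaps from the GENCODE M21 annotation. Whether equal replicate numbers pair the samples is not stated in the labels. Only 1 of 3 numbers had a correlation of deviations over 0.1 (0.191, -0.036, and -0.170). With 3 libraries a group these values cannot decide it, and the main fit was run without pairing.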

Additional observations from a re-analysis of the deposited data

How the results depend on the processing

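No synapse gene was called higher under any alternative run. Called lower were 2 genes with DESeq2 (126 genes lower and 163 higher over the whole table, against 5 and 21 in edgeR), and 0 to 1 when each library was left out. The 7 genes without overlap became 9 on log2 CPM, where the share of all tested genes was not counted, so that 9 cannot be set against it. With each library left out there were 7 to 25 (28.2% to 50% of all tested genes). Without both vehicle replicate 3 and NJT-2 replicate 2, an alternative chosen after seeing the data, there were 36, with 70.9% of all tested genes. Groups of fewer libraries overlap less often, so these counts cannot be set directly against that of all libraries. The median log2 fold change of 0.16 was 0.446 with no filter and lay between -0.3469 and 0.4575 with each library left out. The median range within vehicle lay between 0.4225 and 0.9505, and within NJT-2 between 0.0809 and 0.6702, when libraries were left out, where fewer samples narrow a range. Within NJT-2 it was 1.0687 with log2(FPKM + 0.1) and 1.142 on log2 CPM. The cause of the other shifts was not tested.

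With each library left out, the log2 fold change lay between -1.0434 and 2.7101 for *Slc1a2*, which was -0.0742 without vehicle replicate 1, between -0.0312 and 0.6803 for *Snapin*, and between -0.0292 and 1.1663 for *Adcy3*. Limma on log2(FPKM + 1) moved the median of all tested genes to 0.14. With the replicate number as a block (replicate block), 0 synapse genes were called, the median log2 fold change was 0.1427, and the calls over the whole table rose to 43 higher and 14 lower. The depth of 16093037 counts in vehicle replicate 1 and the floor of 12 counts limit what can be said of genes without a count there.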
